A study of Saccharomyces cerevisiae with 20 samples.

Results

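The 53 genes described here encode enzymes of amino acid synthesis in budding yeast, together with 1 mitochondrial carrier, and leave out the sulfur assimilation and methionine pathway. They were taken by their systematic names from a table of 6679 genes. The rule uses no measured value, but the set was chosen with earlier results of these data known. They comprise 5 histidine, 8 arginine, 9 branched chain, 6 lysine, 8 aromatic, 5 threonine branch and 6 serine and cysteine genes, 5 genes of nitrogen assimilation, asparagine and proline, and OAC1. All 53 had a name in the RefSeq annotation of strain S288C, and 52 had enough signal to be tested. The exception was HIS3 (YOR202W), a histidine pathway dehydratase, which was listed at 0 RPKM in all 20 libraries. The labels do not say whether these strains lack the gene or whether the counting left it out.

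The cells were of strain SK1, in vegetative growth. A strain with DED1 under its own regulatory regions (DED1 cells) was set against 1 in which those regions drove DBP1 in place of the DED1 reading frame (DBP1 cells). Ded1 and Dbp1 are paralogous DEAD-box RNA helicases, and Ded1 is a translation initiation factor that helps the small ribosomal subunit through structured leaders. Aerated cultures in YEPD, which is a rich medium, were kept at 30C or 37C, reached an optical density of 0.6 and received 100 uM cycloheximide for 1 min before harvest. Each strain had 3 libraries of polyadenylated mRNA and 3 of ribosome footprints at 30C, and 2 of each at 37C. Each helicase was represented by 1 strain number, so the helicase and other differences between these strains cannot be told apart. Whether the cultures at 30C and 37C were grown side by side is not given in the sources used here, so temperature and time of growth cannot be told apart either.

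Most of these genes are known targets of Gcn4, the transcription activator of the general amino acid control, whose own translation is held down by short upstream reading frames when amino acids are plentiful. The enzymes work in chains from central metabolites: aspartate feeds threonine, isoleucine and methionine, pyruvate feeds valine and leucine, glutamate feeds arginine and proline, and chorismate feeds the aromatic amino acids. In rich medium the amino acids can also be taken up from outside. CPA1 carries a leader with an upstream reading frame whose peptide is known to stall ribosomes when arginine is abundant.

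Values are RPKM, read counts scaled by gene length and by the mapped reads of the library, which the authors deposited for each gene. An RPKM value is relative to its own library, so a change in total RNA or in total translation cannot be seen. Depth, recovered from the steps between low values, ranged from 3.94 to 9.68 M reads in mRNA and from 4.81 to 9.39 M reads in footprints, and every tested gene of the set had at least 359 reads in every library. The swap showed in the helicase genes themselves: DED1 mRNA lay at 40.9 to 54.2 RPKM in DED1 cells and at 0.0765 to 3.19 RPKM in DBP1 cells, and DBP1 mRNA at 3.64 to 6.5 RPKM in DED1 cells and 98.3 to 130.1 RPKM in DBP1 cells. The 8 meiotic markers, which an SK1 culture could express, were low, with no value above 17.0 RPKM for mRNA. Their summed mRNA was 23.2 to 29.9 RPKM in the libraries at 30C and 46.0 to 51.5 RPKM in those at 37C. The 5 general stress markers summed to 1040 to 1435 RPKM of mRNA in DBP1 cells at 30C and to 37.1 to 138 RPKM in the other groups. The part of either list in the results below was not tested.

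Differences were tested with limma on log2(RPKM + 1), with all groups of an assay in 1 fit and p-values adjusted by the Benjamini-Hochberg method over every gene tested. A gene is called higher or lower where the adjusted p is under 0.05. Folds are those of RPKM + 1, errors are standard errors, and values are listed in the order of the replicate numbers. The labels number the replicates and do not say whether they were separate cultures, so p-values measure the spread between these libraries.

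In DED1 cells at 30C the tested genes spanned 96.8 ± 1.86 RPKM (SD, n = 3) for SER33, a phosphoglycerate dehydrogenase, to 1878 ± 182 RPKM (SD, n = 3) for HIS1, the first enzyme of histidine synthesis, in mRNA. In footprints the range was 64.9 ± 4.0 RPKM (SD, n = 3) for PRO1, the first enzyme of proline synthesis, to 2883 ± 73.8 RPKM (SD, n = 3) for ILV5, the acetohydroxyacid reductoisomerase of valine and isoleucine synthesis. The 53 genes took 2.22%, 2.10% and 1.64% of all mRNA RPKM in DED1 cells at 30C and 1.98% and 1.70% at 37C. In DBP1 cells the shares were 2.29%, 1.90% and 1.89% at 30C and 1.59% and 1.14% at 37C. The shares of DBP1 cells at 37C were thus below those of all other libraries, and the shares of the other groups overlapped.

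**Figure D1:**
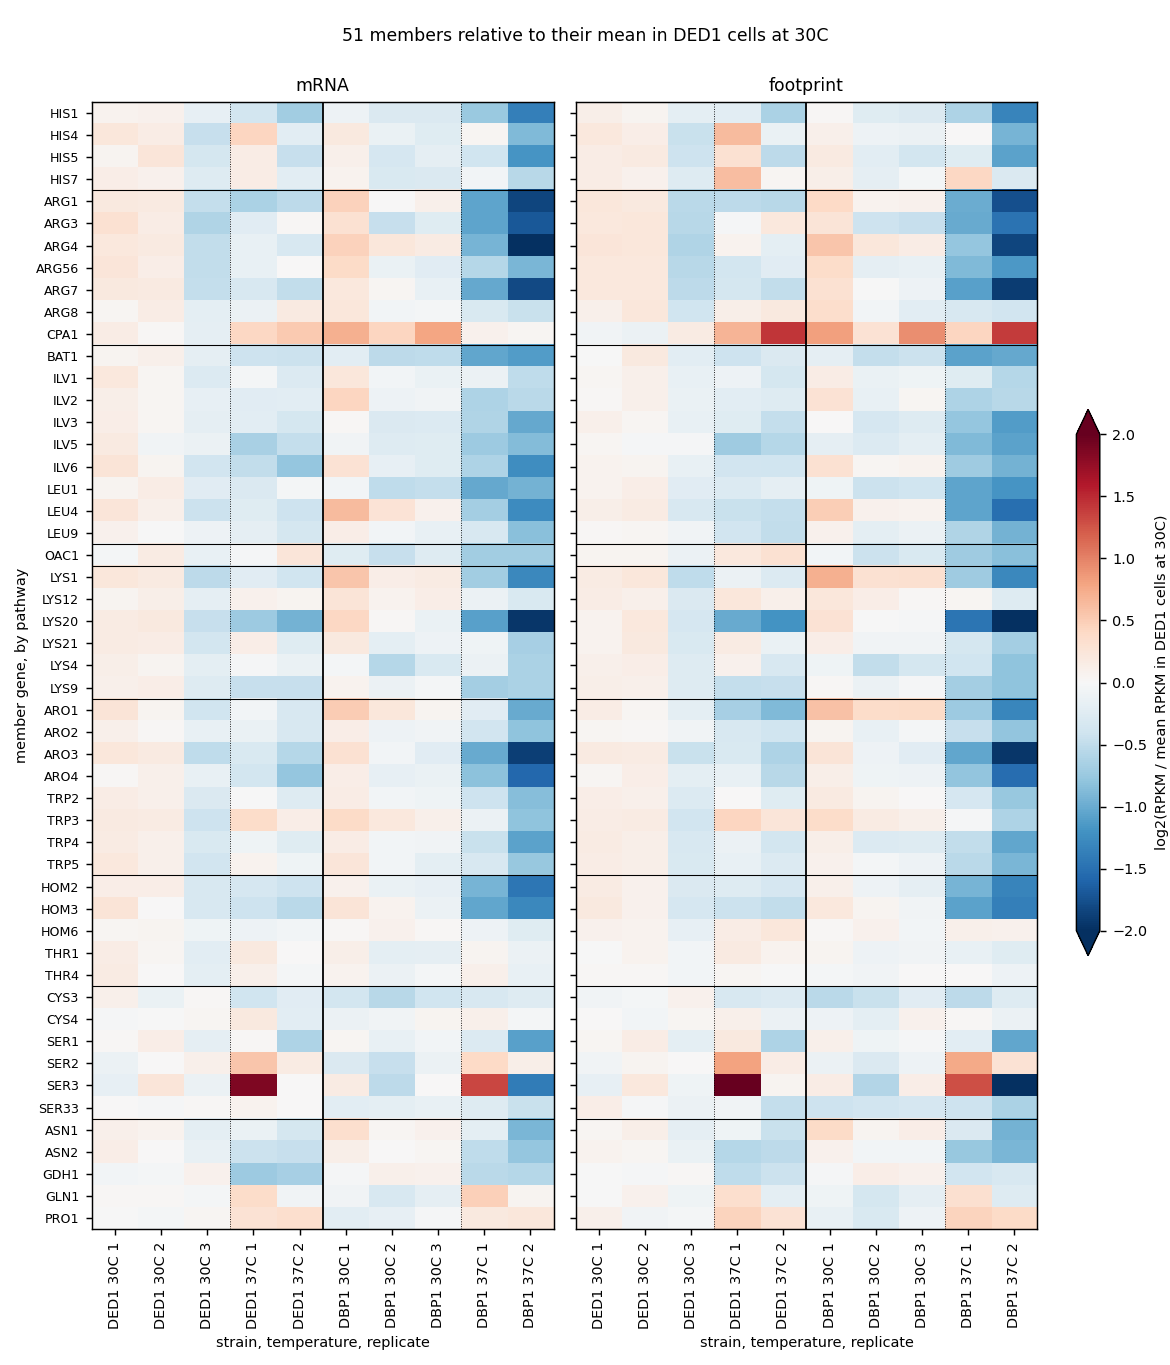
Level of 51 of the 52 tested genes in every library, relative to the gene's mean over DED1 cells at 30C, on a log2 scale, with genes grouped by pathway and libraries by strain and temperature. The second library of DBP1 cells at 37C is the lowest of all 10 for 39 of the 52 genes in mRNA and for 40 in footprints.

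Libraries of 1 group differed in the level of the whole set. Replicate 2 of DBP1 cells at 37C held the lowest mRNA value of all 10 libraries for 39 of the 52 genes and the lowest footprint value for 40. Replicate 3 of DED1 cells at 30C was the lowest of its group for 45 genes in mRNA and 44 in footprints. Replicate 1 of DBP1 cells at 30C held the highest mRNA value of all libraries for 23 genes and the highest footprint value for 20. The second header line of 3 deposited columns differs from the labels: the mRNA column of replicate 2 of DBP1 cells at 37C is named as footprints there, and both columns of replicate 1 of DBP1 cells at 30C have another strain number. The labels were followed. Over 4977 genes the first of these columns correlated with the other 9 mRNA libraries at r of 0.942 to 0.985 and with the 10 footprint libraries at 0.871 to 0.919, on the log2(RPKM + 1) scale.

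Growth at 37C went with lower levels of most of these genes in DBP1 cells. In mRNA, 36 of 52 were lower than at 30C and 3 were higher, where 13.1% of all genes tested were called lower and 30% higher. In footprints, 33 were lower and 2 higher, against 17.6% and 21.2% of all genes. The median log2 difference of the 52 genes was -0.63 in mRNA and -0.63 in footprints, beside 0.18 and 0.10 for all genes tested. Without replicate 2 at 37C fewer of these genes were called. That fit leaves 1 library in the group, and fewer of all genes were called too. The pathway medians then ranged from -0.99 for arginine to 0.12 for serine and cysteine in mRNA, beside 0.14 for all genes. In footprints they ranged from -0.98 to 0.03 for the same pathways, beside 0.10. The same 5 general stress markers, whose sums are given above, were all lower at 37C in DBP1 cells, with a median log2 difference of -2.11 in mRNA.

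The arginine genes showed the lowest median of the pathways. All 8 were lower in mRNA in DBP1 cells at 37C, with a median log2 difference of -1.34, and 6 of 8 were lower in footprints, with a median of -1.29. Without replicate 2 at 37C, 5 of the 8 were lower in mRNA and 4 in footprints, since ARG3 and ARG56 lost the call in both assays and ARG8 in mRNA. ARG1 (YOL058W), the argininosuccinate synthase, had the highest footprint level of the pathway. Its mRNA lay at 2040.4, 1498 and 1594 RPKM in DBP1 cells at 30C and at 717 and 418 RPKM at 37C. Its footprints lay at 1354, 1081 and 1089 RPKM and at 517 and 303 RPKM. Both libraries at 37C were below all 3 at 30C, a 3.09-fold difference in mRNA (adjusted p = 0.000913) and a 2.94-fold difference in footprints (adjusted p = 0.00135).

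CPA1 (YOR303W), the arginine gene with the upstream reading frame in its leader, moved in opposite directions in the mRNA of the strains. In DBP1 cells CPA1 mRNA was 459, 380.2 and 488 RPKM at 30C and 298 and 289.6 RPKM at 37C, 1.50-fold lower at 37C with an adjusted p of 0.00501. Its footprints were 119, 81.8 and 127 RPKM at 30C and 90.2 and 176 RPKM at 37C, so the groups overlapped. In DED1 cells CPA1 mRNA was 312, 286 and 248 RPKM at 30C and 374 and 403 RPKM at 37C, and its footprints were 64.0, 62.0 and 74.8 RPKM at 30C and 108 and 181 RPKM at 37C. It was therefore higher at 37C in DED1 cells, 1.38-fold in mRNA (adjusted p = 0.0105) and 2.08-fold in footprints (adjusted p = 0.0149). Neither call in DED1 cells held without replicate 2 at 37C, with adjusted p of 0.0713 and 0.139. With libraries scaled by the median of ratios in place of the deposited scaling, the log2 differences were 0.20 (adjusted p = 0.213) and 0.83 (adjusted p = 0.0537).

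**Figure D2:**
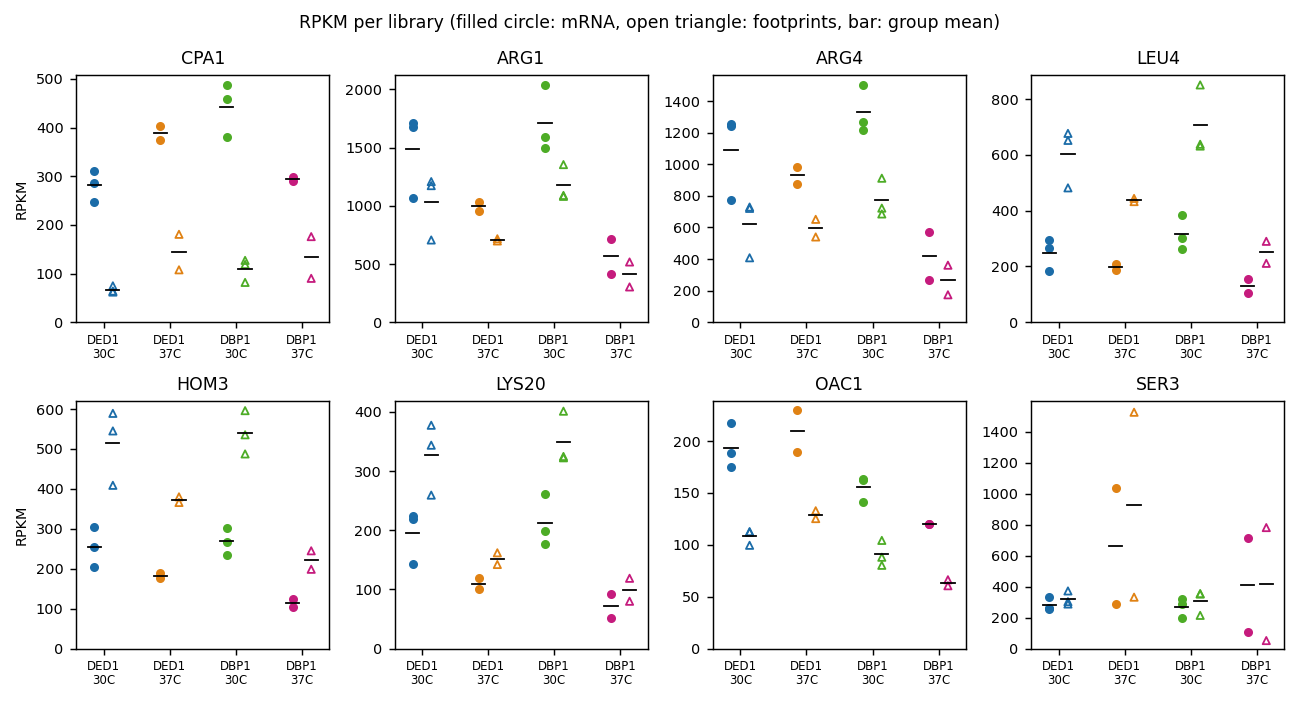
mRNA and footprint RPKM of chosen genes in each of the 10 libraries of an assay, as points on axes from 0, with bars at the group means, for DED1 and DBP1 cells at 30C and 37C. ARG1 mRNA in DBP1 cells lies at 1498 to 2040.4 RPKM at 30C and at 418 and 717 RPKM at 37C, while CPA1 footprints in DED1 cells lie at 108 and 181 RPKM at 37C, above the 62.0 to 74.8 RPKM at 30C.

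All 8 aromatic genes were lower in mRNA in DBP1 cells at 37C, with a median log2 difference of -0.72, and 7 of 8 in footprints, with a median of -0.67. Without replicate 2 at 37C only ARO3 and ARO4, 2 of the 8, were called in mRNA, with a median of -0.43, and 5 of 8 in footprints. Without replicate 1 at 30C, 5 were called in mRNA. ARO4 (YBR249C) and ARO3 (YDR035W) encode the paired enzymes of the first step of the shikimate pathway. ARO4 mRNA was 1814, 1468 and 1513 RPKM at 30C and 940.3 and 559 RPKM at 37C, 2.19-fold lower (adjusted p = 0.00198). ARO3 mRNA was 847, 658 and 588 RPKM at 30C and 342 and 185 RPKM at 37C, 2.73-fold lower (adjusted p = 0.00297). Neither gene overlapped between the temperatures, and their footprints were 2.18-fold and 2.76-fold lower (adjusted p = 0.00204 and 0.00256).

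Of the 9 branched chain genes, 8 were lower in mRNA and 9 in footprints in DBP1 cells at 37C, with medians of -0.64 and -0.75. Without replicate 2 at 37C, 5 were lower in mRNA, where ILV3, ILV6 and LEU9 lost the call, and 8 in footprints, where ILV1 did. ILV5 (YLR355C) footprints were 2549.5, 2381 and 2524 RPKM at 30C and 1569 and 1372 RPKM at 37C, with no overlap, 1.69-fold lower with an adjusted p of 5.92e-05. LEU4 (YNL104C), which makes isopropylmalate at the first step towards leucine, had 851, 638 and 632 RPKM of footprints at 30C and 290.3 and 211 RPKM at 37C, 2.82-fold lower with an adjusted p of 0.00028. BAT1, the mitochondrial branched chain aminotransferase, and LEU1, the isopropylmalate isomerase, were 1.60-fold and 1.74-fold lower in footprints (adjusted p = 0.00239 and 0.00142). OAC1 (YKL120W), the carrier of oxaloacetate and isopropylmalate across the inner mitochondrial membrane, was 1.29-fold lower in mRNA and 1.42-fold lower in footprints (adjusted p = 0.0316 and 0.00761), and its footprint call was lost without replicate 2 at 37C (adjusted p = 0.0578). Its mRNA call was lost in 4 of 10 fits with 1 replicate left out, without replicate 1 or 3 at 30C or replicate 1 or 2 at 37C, with adjusted p up to 0.111.

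Of the 6 lysine genes, 4 were lower in each assay in DBP1 cells at 37C, and 3 in each without replicate 2 at 37C. LYS20 (YDL182W), a homocitrate synthase at the first step of lysine synthesis, had 401, 325 and 323 RPKM of footprints at 30C and 119 and 79.97 RPKM at 37C. The 3.54-fold difference had an adjusted p of 0.000108 and held with any 1 replicate left out. LYS12 (YIL094C), the homoisocitrate dehydrogenase and the most abundant of the lysine genes in footprints, moved less, with 367, 344 and 320.3 RPKM at 30C and 322 and 263 RPKM at 37C, where the groups overlapped and no call was made in footprints (adjusted p = 0.206). LYS12 mRNA was called lower, a call lost without replicate 1 at 30C. Its log2 difference was -0.45 to -0.26 over the fits with 1 replicate left out. The 4 calls thus differed between the assays, with LYS12 in mRNA only and LYS21 in footprints only.

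In the threonine branch, which leads from aspartate to homoserine and threonine, 2 of 5 genes were lower in each assay, and these were the early enzymes. HOM3 (YER052C), the aspartate kinase, had 596, 535 and 487 RPKM of footprints at 30C and 245 and 199 RPKM at 37C, 2.43-fold lower with an adjusted p of 0.000238. HOM2 (YDR158W), the aspartate semialdehyde dehydrogenase, had 1727, 1502 and 1419 RPKM at 30C and 843 and 647 RPKM at 37C, 2.09-fold lower with an adjusted p of 0.000562. For both, the libraries at 37C lay below all libraries at 30C. THR1 and THR4, the last enzymes of the branch, had log2 differences of 0.05 and 0.01 in mRNA and -0.16 and -0.01 in footprints and were not called.

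The remaining pathways were mixed. Of the 4 histidine genes tested, HIS1 (YER055C) alone was called, with 1754, 1531 and 1529 RPKM of mRNA in DBP1 cells at 30C and 1126 and 729 RPKM at 37C, 1.77-fold lower with an adjusted p of 0.00447. HIS1 footprints were called lower too, but not without replicate 2 at 37C (adjusted p = 0.106). HIS4 (YCL030C), a multifunctional histidine enzyme, had 979.7, 787 and 726 RPKM of mRNA at 30C and 883 and 465 RPKM at 37C, so that its groups overlapped. In the nitrogen group GDH1 (YOR375C), the NADP-dependent glutamate dehydrogenase, and the asparagine synthetases ASN1 and ASN2 were lower in both assays. GDH1 mRNA was 1171, 1268 and 1258 RPKM at 30C and 817 and 802 RPKM at 37C, 1.52-fold lower with an adjusted p of 0.000356. ASN2 (YGR124W) mRNA was 633, 592 and 605 RPKM at 30C and 414 and 343 RPKM at 37C, 1.62-fold lower with an adjusted p of 0.001. ASN1 (YPR145W) mRNA was 1321, 1067 and 1109 RPKM at 30C and 910.1 and 555 RPKM at 37C, and its adjusted p of 0.0138 became 0.135 without replicate 2 at 37C, as that of its footprints became 0.0683.

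The genes higher at 37C in DBP1 cells were SER2, GLN1 and PRO1 in mRNA and SER2 and PRO1 in footprints. PRO1 (YDR300C) footprints were 58.9, 52.4 and 60.8 RPKM at 30C and 88.7 and 84.9 RPKM at 37C, 1.51-fold higher with an adjusted p of 0.0013. SER2 (YGR208W), the phosphoserine phosphatase that ends serine synthesis, had 113, 100.4 and 113 RPKM of footprints at 30C and 207 and 150.1 RPKM at 37C, 1.61-fold higher with an adjusted p of 0.0153. GLN1 (YPR035W), the glutamine synthetase, had 714, 603 and 663 RPKM of mRNA at 30C and 1048 and 780.1 RPKM at 37C, 1.37-fold higher with an adjusted p of 0.032. The libraries at 37C were above those at 30C in each of these cases. With median-of-ratios scaling none of the 3 mRNA calls held (adjusted p = 0.134 for PRO1, 0.0927 for SER2 and 0.194 for GLN1). That scaling moved the median of all genes from 0.18 to 0.02 in mRNA, and the footprint calls of PRO1 and SER2 held under it. The SER2 calls were lost without replicate 1 at 37C (adjusted p = 0.106 in mRNA and 0.131 in footprints), the PRO1 mRNA call without replicate 2 at 37C (adjusted p = 0.0565), and the GLN1 call without replicate 1 at 37C or replicate 2 or 3 at 30C.

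**Figure D3:**
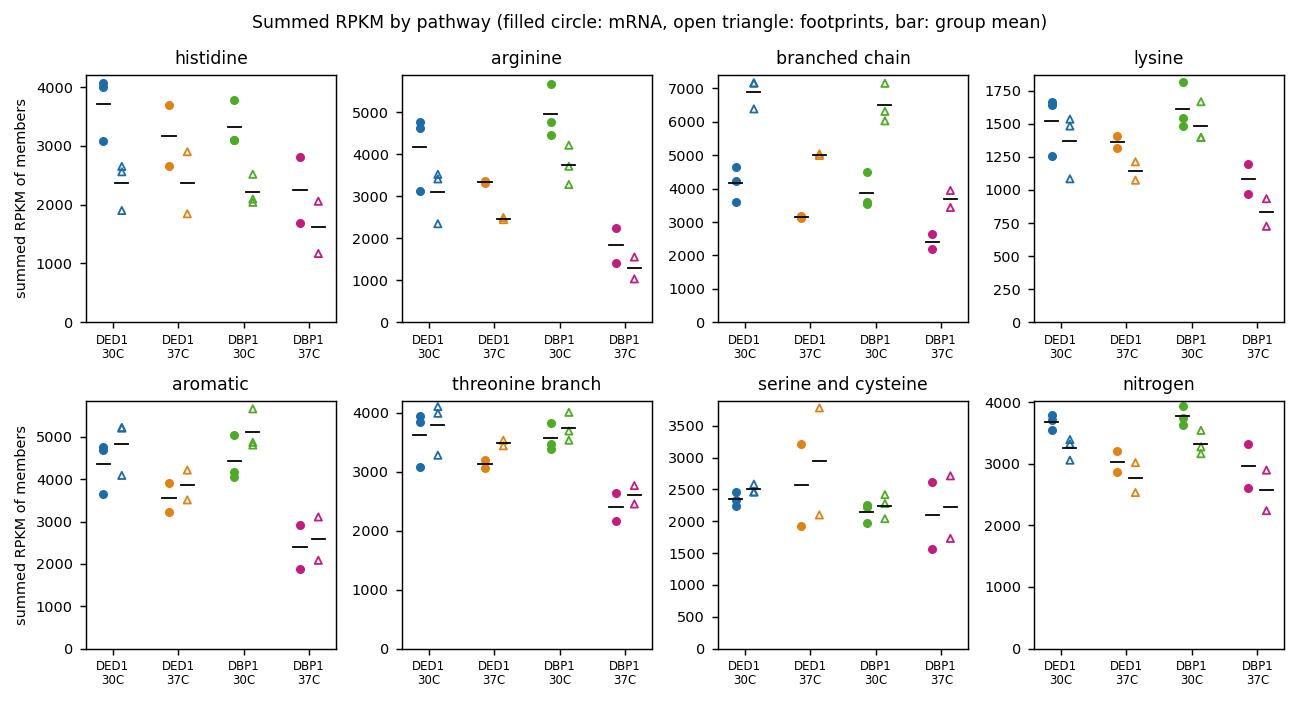
Summed RPKM of the genes of each pathway in every library, for mRNA and footprints, on axes that start at 0, with points for libraries and bars for group means. The arginine genes sum to 4469 to 5670 RPKM of mRNA in DBP1 cells at 30C and to 1407 and 2252 RPKM at 37C.

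In DED1 cells fewer of the genes passed the test at 37C. In mRNA, 11 of 52 were lower and 2 higher than at 30C, where 10.3% of all genes were called lower and 43.1% higher. In footprints, 13 were lower and 2 higher, against 13.6% and 38.9% of all genes. The median log2 difference of the 52 was -0.16 in mRNA and -0.22 in footprints, beside 0.26 and 0.21 for all genes tested. With median-of-ratios scaling, which brought the median of all genes to 0.00 in mRNA, the counts were 20 lower in mRNA and 26 lower in footprints, and no gene of the set was higher. The calls over all genes moved too. Under that scaling 1180 of 5450 were lower and 925 higher in mRNA, and 1196 of 4987 lower and 1002 higher in footprints. Leaving out replicate 2 at 37C left 4 lower and 1 higher in mRNA, and leaving out replicate 1 at 37C, or replicate 1 or 2 at 30C, left 5 lower and 2 higher. In footprints, 7 were lower and 1 higher without replicate 1 at 37C, and 6 lower and 2 higher without replicate 2 at 37C.

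The calls in DED1 cells were spread over the pathways, with 2 of the 9 branched chain genes, 2 of 6 lysine genes, 2 of 5 nitrogen genes and 1 of 8 arginine genes lower in mRNA. Without replicate 1 or without replicate 2 of DED1 cells at 37C, the lysine count was 0 and the branched chain count 1. GDH1 mRNA was 1146, 1158 and 1257 RPKM at 30C and 715 and 752 RPKM at 37C, 1.62-fold lower with an adjusted p of 0.000169. ILV5 mRNA was 1479, 1246 and 1210.3 RPKM at 30C and 833 and 946 RPKM at 37C, 1.47-fold lower with an adjusted p of 0.00273. These genes fell in both strains, and the strain difference in their response was not called (adjusted p = 0.675 and 0.885 in mRNA).

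ASN2 mRNA in DED1 cells was 645, 586 and 528 RPKM at 30C and 433 and 427 RPKM at 37C, 1.36-fold lower with an adjusted p of 0.00677. PRO1, one of the higher genes, had 114, 112 and 118 RPKM of mRNA at 30C and 139.6 and 144 RPKM at 37C, 1.24-fold higher with an adjusted p of 0.0115. Under the other scaling, by median of ratios, its log2 difference was 0.04 and was not called (adjusted p = 0.739), and without replicate 2 at 37C the adjusted p was 0.0682.

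**Figure D4:**
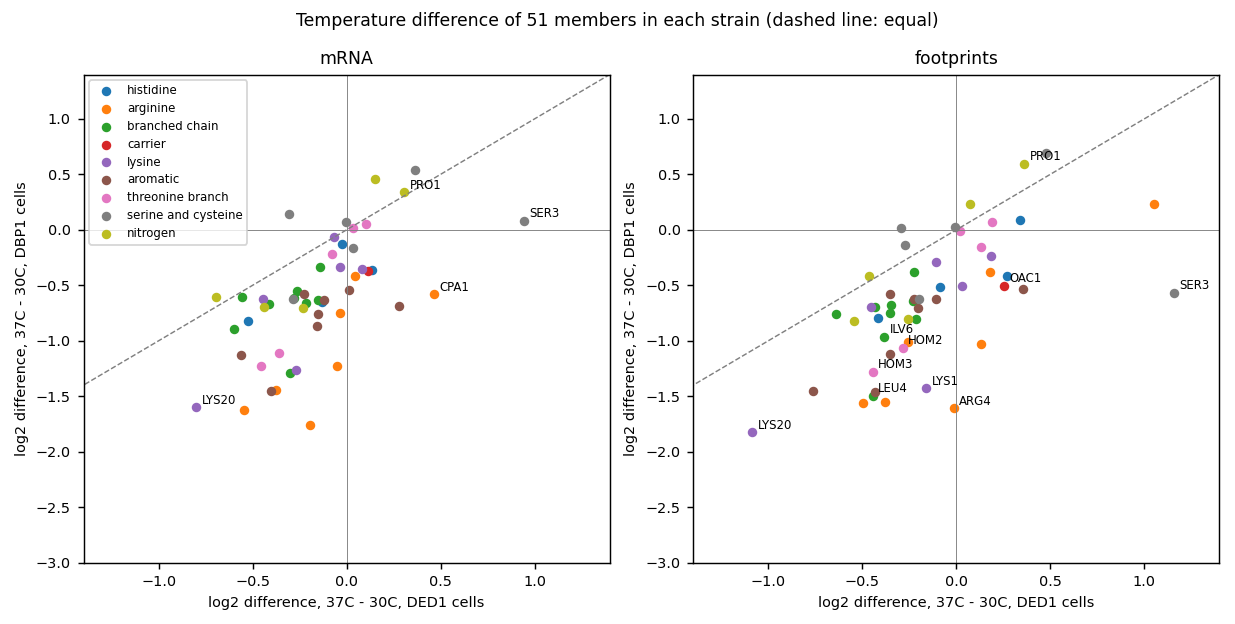
Log2 difference between 37C and 30C in DBP1 cells against that in DED1 cells for 51 of the 52 tested genes, in mRNA and in footprints, coloured by pathway. Lines mark 0 and equal differences in both strains. Of the genes drawn, 44 lie below the line of equal differences in each assay.

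Whether the strains differed in their response to 37C was tested directly, as the difference in DBP1 cells minus that in DED1 cells. This difference was negative for 45 of 52 genes in each assay, with a median of -0.45 in mRNA and -0.47 in footprints beside -0.10 and -0.14 for all genes tested. Past the test were 2 genes lower in mRNA, CPA1 among them, where 5.06% of all genes were called lower. In footprints 8 were lower, where 10% of all genes were. The strain difference was also called lower for 4 of 5 general stress markers in mRNA and 5 of 5 in footprints. Their summed mRNA was 1040 to 1435 RPKM in DBP1 cells and 62.9 to 138 RPKM in DED1 cells at 30C. At 37C it was 37.1 to 43.1 RPKM in DBP1 cells and 53.3 to 54.5 RPKM in DED1 cells. A link between these markers and the 52 genes was not tested.

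In mRNA the strain difference was -1.05 ± 0.18 for CPA1 (2.07-fold, adjusted p = 0.00908). The CPA1 call held with any 1 replicate left out and with median-of-ratios scaling. In the main fit CPA1 mRNA moved up in DED1 cells and down in DBP1 cells. The rise in DED1 cells was not called in limma under that scaling (log2 difference 0.20, adjusted p = 0.213), nor without replicate 2 at 37C.

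The footprint differences included those of ARG4, HOM2, HOM3, ILV6, LEU4, LYS1 and OAC1. With median-of-ratios scaling 3 of the 8 kept the call, LEU4 and OAC1 among them. ARG4 (YHR018C) is the argininosuccinate lyase of the last arginine step, ILV6 the regulatory subunit of acetolactate synthase, and LYS1 the saccharopine dehydrogenase of the last lysine step. OAC1 footprints were 112, 113 and 99.6 RPKM in DED1 cells at 30C and 125 and 133 RPKM at 37C, and 104, 80.3 and 88.05 RPKM in DBP1 cells at 30C and 66.3 and 60.6 RPKM at 37C. Its strain difference was -0.76 ± 0.16 (1.69-fold, adjusted p = 0.0205). LEU4 footprints were 652, 677 and 482 RPKM in DED1 cells at 30C and 444 and 433 RPKM at 37C, and the strain difference was -1.05 ± 0.26 (2.07-fold, adjusted p = 0.0339). The count of 8 was not stable: it was 2 without replicate 1 of DBP1 cells at 30C and 3 to 4 without any of 4 other libraries at 30C. The counts over all genes fell as well. They were 501 lower of 4986 in the main fit, 338 of 4982 without replicate 1 of DBP1 cells at 30C, and 283 to 354 without any of those 4 libraries. The count of the set fell without either replicate of DED1 cells at 37C or replicate 2 of DBP1 cells at 37C. It rose without replicate 1 of DBP1 cells at 37C. These fits leave 1 library in a group.

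At 30C the swap itself moved few of these genes. In mRNA, CPA1 was higher in DBP1 cells and BAT1 and CYS3 were lower, 1 and 2 of 52 where 8.03% of all genes were called higher and 1.27% lower. In footprints CYS3 alone was lower, where 3.09% of all genes were. The median log2 difference of the 52 genes was -0.01 in both assays, beside 0.04 in mRNA and 0.06 in footprints for all genes tested.

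CPA1 mRNA lay at 312, 286 and 248 RPKM in DED1 cells and at 459, 380.2 and 488 RPKM in DBP1 cells at 30C. The groups did not overlap, and the 1.57-fold difference (log2 difference 0.65 ± 0.11, adjusted p = 0.00641) held with any 1 replicate left out. CPA1 footprints, at 64.0, 62.0 and 74.8 RPKM in DED1 cells and 119, 81.8 and 127 RPKM in DBP1 cells, were separate too but not called (adjusted p = 0.122).

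CYS3 (YAL012W), the cystathionine gamma-lyase that makes cysteine, had 308, 261 and 294 RPKM of mRNA in DED1 cells and 224, 195 and 219 RPKM in DBP1 cells at 30C. Its footprints were 725, 739 and 808 RPKM in DED1 cells and 524, 553 and 650.2 RPKM in DBP1 cells. All 3 DBP1 libraries were below the DED1 libraries in both assays, 1.35-fold in mRNA (adjusted p = 0.0168) and 1.32-fold in footprints (adjusted p = 0.0263). The mRNA call was lost without replicate 2 of DBP1 cells or replicate 3 of DED1 cells at 30C, and the footprint call without any of 4 libraries at 30C, replicates 1 and 2 of DBP1 cells and replicates 2 and 3 of DED1 cells. CYS4, the cystathionine beta-synthase that acts before it, had log2 differences of -0.04 in mRNA and -0.07 in footprints and was not called.

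BAT1 (YHR208W) had 399, 413 and 336 RPKM of mRNA in DED1 cells and 331, 268 and 270.3 RPKM in DBP1 cells at 30C, which do not overlap. The 1.32-fold difference had an adjusted p of 0.042 and was lost in 8 of 10 fits with 1 replicate left out, with adjusted p up to 0.158.

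At 37C the swap was tested on 2 libraries a strain, and few genes of the whole table passed. In mRNA none of the 52 was called, where 0.055% of all genes were, although 28 had an unadjusted p under 0.05 and 48 were below 0 in log2 difference. In footprints 2 were lower, LEU1 and OAC1, where 0.923% of all genes were, and 32 had an unadjusted p under 0.05. Of all genes tested, 576 of 5454 in mRNA and 822 of 4986 in footprints had such an unadjusted p. The libraries of DBP1 cells lay wholly below those of DED1 cells for 32 genes in mRNA and 34 in footprints, and wholly above for 1 gene in each assay. The share of all genes separated in this way was not counted, so these counts have no background beside them. The median log2 difference of the 52 genes was -0.42 in mRNA and -0.49 in footprints, beside -0.05 and -0.08 for all genes tested.

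LEU1 (YGL009C) footprints at 37C were 224 and 241 RPKM in DED1 cells and 131 and 120.3 RPKM in DBP1 cells, 1.84-fold lower with a log2 difference of -0.88 ± 0.15 and an adjusted p of 0.0335. OAC1 footprints at 37C were 125 and 133 RPKM in DED1 cells and 66.3 and 60.6 RPKM in DBP1 cells, 2.02-fold lower with a log2 difference of -1.01 ± 0.13 and an adjusted p of 0.0157. For both genes each DBP1 library lay below each DED1 library at 37C. Without replicate 1 or 2 of DED1 cells at 37C, or replicate 2 of DBP1 cells at 37C, neither was called, and without replicate 1 of DBP1 cells at 37C the count was 9. LEU1 was also lost without replicate 3 of DBP1 cells or replicate 1 or 2 of DED1 cells at 30C, and without replicate 3 of DED1 cells at 30C the count was 6.

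Translation efficiency, the footprint RPKM of a gene divided by its mRNA RPKM, was above the median of all genes for most of the set. In DED1 cells at 30C the median of the 52 genes was 0.975 beside 0.654 for all genes tested, and 42 of 52 lay above that all-gene median. The order was much alike in the 4 groups, with CPA1 and LYS12 lowest and ARO1, CYS3 and LEU4 highest in each. ARO1 (YDR127W), which carries out several consecutive steps of the shikimate pathway in a single polypeptide, had 4.12, 4.37 and 5.10 in DED1 cells at 30C. CPA1 had 0.205, 0.217 and 0.302, and LYS12 had 0.517, 0.479 and 0.447. HIS1, the third from the bottom, had 0.518, 0.49 and 0.492. The mean was 2.64 ± 0.255 (SD, n = 3) for CYS3 and 2.46 ± 0.212 (SD, n = 3) for LEU4.

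**Figure D5:**
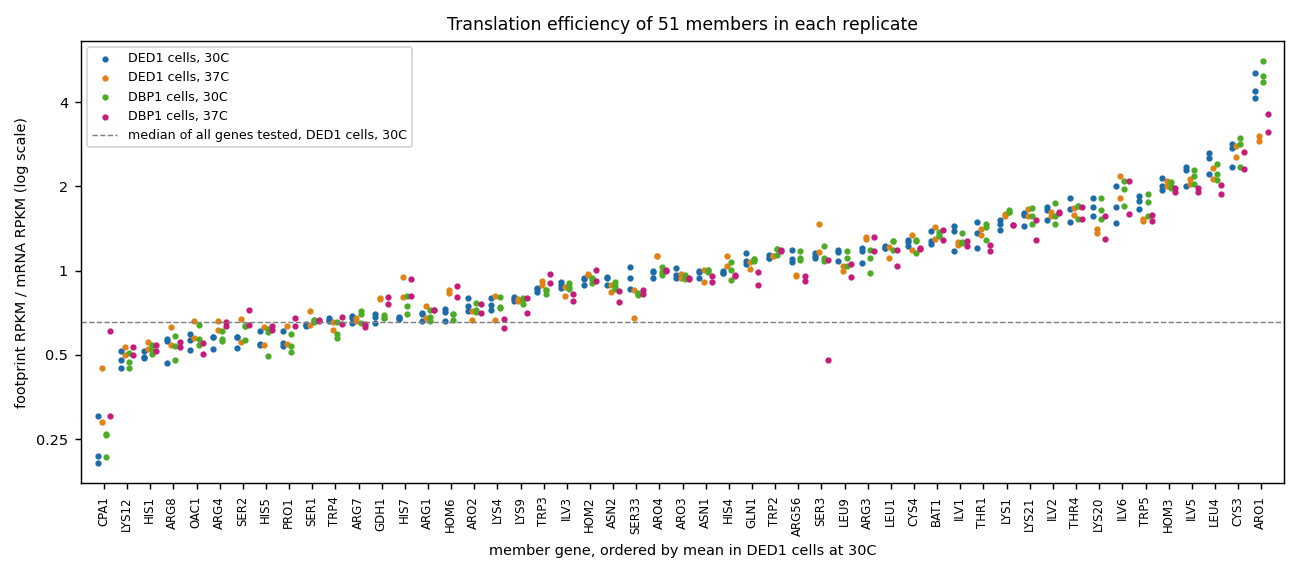
Translation efficiency, footprint RPKM divided by mRNA RPKM, of 51 of the 52 tested genes in each group, on a log axis, with the median of all genes marked. ARO1 is highest and CPA1 lowest in each of the 4 groups, and the ARO1 mean is 4.53 in DED1 cells at 30C and 2.96 at 37C.

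Neither the swap nor the temperature changed the efficiency of any of the 52 genes past the test in a model over all 20 libraries. The share of all genes called was 0.0402% for the swap at 30C, 0.0201% for the swap at 37C, 0.985% for 37C in DED1 cells, 1.02% for 37C in DBP1 cells and 0% for the strain difference in response. At an unadjusted p under 0.05 there were 2 of the 52 for 37C in DED1 cells, 3 for 37C in DBP1 cells and 0 for the others. Of all 4977 genes tested, 594, 598 and 109 to 153 had such a p, in the same order. With each footprint library paired to the mRNA library of its strain, temperature and replicate number, the same model called 4 of 52 for 37C in DED1 cells, where 6.71% of all genes were called, and 2 of 52 in DBP1 cells, where 5.61% were. That pairing called 0 of 52 for the swap at 30C, the swap at 37C and the strain difference, beside 0.181%, 0.0402% and 0% of all genes.

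In the paired test ARO1 efficiency was lower at 37C in both strains. Its efficiency was 2.91 and 3.02 in DED1 cells at 37C, below the 4.12 to 5.10 at 30C, 1.52-fold lower with a paired adjusted p of 0.00817. In DBP1 cells it was 4.70, 4.94 and 5.61 at 30C and 3.14 and 3.63 at 37C, 1.51-fold lower with a paired adjusted p of 0.00737. Without the pairing the adjusted p was 0.505 and 0.525.

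HOM6 (YJR139C), the homoserine dehydrogenase, was the other gene called in both strains by the paired test. Its efficiency was 0.727, 0.711 and 0.662 in DED1 cells at 30C and 0.833 and 0.85 at 37C, 1.20-fold higher (paired adjusted p = 0.0362), and in DBP1 cells 1.22-fold higher (paired adjusted p = 0.0301). HIS7, which acts midway in histidine synthesis, had an efficiency 1.29-fold higher at 37C in DED1 cells, and GDH1 1.17-fold higher (paired adjusted p = 0.0385 and 0.0468). GDH1 mRNA fell at the same time, so its footprints were lower by 1.38-fold and its mRNA by 1.62-fold.

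CPA1 efficiency lay between 0.205 and 0.608 in all 10 pairs of libraries. The highest CPA1 efficiencies were those of replicate 2 at 37C, 0.448 in DED1 cells and 0.608 in DBP1 cells. No CPA1 difference in efficiency was called (adjusted p = 0.367 for 37C in DBP1 cells and 0.578 in DED1 cells).

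Some steps have a pair of paralogous enzymes, and the balance within a pair was compared as the ratio of their RPKM. How reads shared by such copies were counted is not given in the sources used here, so their split is uncertain. The LYS20 to LYS21 ratio of mRNA RPKM was 1.85, 1.90 and 1.74 in DED1 cells at 30C and 1.02 and 1.13 at 37C, and 2.16, 2.13 and 1.79 in DBP1 cells at 30C and 0.919 and 0.76 at 37C. LYS21 (YDL131W) mRNA itself was 119, 118 and 81.9 RPKM in DED1 cells at 30C and 116 and 89.6 RPKM at 37C, and was not called in mRNA in either strain. LYS21 footprints were called lower at 37C in DBP1 cells, a call lost in 4 of 10 fits with 1 replicate left out (without any of the libraries at 30C of that strain, or replicate 2 at 37C).

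The LEU4 to LEU9 ratio of mRNA was 1.78, 1.60 and 1.49 in DBP1 cells at 30C and 0.987 and 0.945 at 37C. In DED1 cells it was 1.4, 1.37 and 1.00 at 30C and 1.21 at 37C in both libraries, so the temperatures overlapped there. LEU9 (YOR108W) mRNA was 215, 189 and 177 RPKM at 30C and 157 and 110.2 RPKM at 37C in DBP1 cells, 1.46-fold lower with an adjusted p of 0.0136 that became 0.137 without replicate 2 at 37C.

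SER3 and SER33 both encode the first enzyme of serine synthesis. SER3 (YER081W) was the most variable gene of the set at 37C, with 1038 and 285 RPKM of mRNA in DED1 cells and 714 and 107 RPKM in DBP1 cells, against 197 to 336 RPKM in the 6 libraries at 30C. Its footprints at 37C were 1526 and 332 RPKM in DED1 cells and 781 and 51.5 RPKM in DBP1 cells. In both strains replicate 1 at 37C was above every library at 30C and replicate 2 was not, and no SER3 difference was called. SER33 (YIL074C) mRNA stayed between 71.3 and 102 RPKM in all 10 libraries. The ratios of ASN1 to ASN2 and of ARO3 to ARO4 in mRNA spanned 1.62 to 2.20 and 0.321 to 0.475 over all 10 libraries.

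The other enzymes of these pathways, 24 genes outside the set, were called in both directions. In mRNA 6 of 23 tested were lower and 7 higher at 37C in DBP1 cells, and 4 lower and 6 higher in DED1 cells, with medians of -0.13 and 0.21. In footprints 9 of 21 were lower and 4 higher in DBP1 cells, and 5 lower and 6 higher in DED1 cells. Without replicate 2 of DBP1 cells at 37C, 3 were lower and 4 higher in mRNA and 5 lower and 4 higher in footprints in DBP1 cells. In DED1 cells the lower counts became 2 in mRNA without replicate 1 at 30C or either replicate at 37C, and in footprints 3 without replicate 2 at 30C and 2 without replicate 1 at 37C. The difference between these genes and the 52 was not tested.

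Of 9 regulators of amino acid genes, limma called none lower in mRNA at 37C in either strain, while 4 were higher in DBP1 cells and 5 in DED1 cells. Of all genes, 30% and 43.1% were higher there. Without replicate 3 of DED1 cells at 30C, 1 was lower in DBP1 cells, and the lower count also rose without replicate 1 of DBP1 cells at 37C. In footprints 4 were lower and 2 higher in DBP1 cells at 37C, beside 17.6% and 21.2% of all genes. In DED1 cells 1 was lower and 4 higher, beside 13.6% and 38.9%. The 4 lower in DBP1 cells were GCN4, GLN3, BAS1 and ARG80, named here after their values were seen. Their number fell without replicate 2 at 37C, a fit with 1 library in that group. GCN4 (YEL009C) footprints were 758, 539.9 and 534 RPKM in DBP1 cells at 30C and 291 and 85.9 RPKM at 37C, while its mRNA was 1783, 1611 and 1508 RPKM at 30C and 1505 and 1113 RPKM at 37C. The footprints were 3.79-fold lower, with a log2 difference of -1.92 ± 0.42 and an adjusted p of 0.00559, and the mRNA was not called (adjusted p = 0.0589). Without replicate 2 at 37C the footprints were 2.07-fold lower (adjusted p = 0.0217), and without replicate 1 at 37C they were 6.94-fold lower (adjusted p = 0.000116) and the mRNA was called lower (adjusted p = 0.0111).

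In DED1 cells GCN4 footprints were 426, 436 and 290.5 RPKM at 30C and 367 and 273 RPKM at 37C, with overlap and no call. The strain difference in the GCN4 footprint response was -1.67 ± 0.59 and was not called (adjusted p = 0.0921). GCN4 efficiency was 0.425, 0.335 and 0.354 in DBP1 cells at 30C and 0.193 and 0.0772 at 37C, a 3.01-fold difference with an adjusted p of 0.128, or 0.00685 with footprint and mRNA libraries paired. Replicate 2 of DBP1 cells at 37C, the library lowest in most of the 52 genes, was also the lowest in GCN4 footprints and in GCN4 mRNA.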

How the data were processed

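RPKM for 6679 genes and 20 libraries came as 1 table that the authors deposited. Per the submitters' processing notes, CASAVA, bcl2fastq 2.17 and Bowtie2 were used. Neither the genome build nor the counting tool is given in the sources used here. Gene names came from RefSeq R64 (strain S288C) and matched 5994 genes. No sequence was read. The values of 1 gene of the set, which is included in all counts, medians and sums, are not reported here and not drawn.

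The log2(RPKM + 1) values entered limma 3.58.1 (R 4.3.3), with eBayes and an intensity trend. Genes whose mean in the assay reached 5 RPKM were tested. Each of the 4 groups had its own mean, and tests were two-sided. Translation efficiency was tested as an interaction of assay and group across the 20 libraries, and again with the mRNA and footprint libraries of each replicate paired. These pairs deviated together from their group means, with correlations across genes of 0.24 to 0.65. Deviations within a group balance each other, so these correlations are not independent, and those of a group at 37C are equal by design. The procedure was tested on simulated data.

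Depth was recovered by matching RPKM to whole reads within 0.02 reads, with coding lengths less 60 nt, which was so for 81.7% to 89.5% of the low values. Genes given in every library were the most significant calls, the most abundant gene of a pathway, paralog pairs, CPA1, GCN4 and the extremes of efficiency. The set is given by gene name and its rule uses no value, but the set, the genes named and all lists were chosen with earlier results of these data known. Alternatives were pseudocounts of 0.1 and 5 RPKM, no filter, a filter of 20 RPKM, median-of-ratios scaling, a replicate block and each replicate left out.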

Additional observations from a re-analysis of the deposited data

Results flagged for a closer look

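The difference between the strains in their response to 37C, tested directly with limma in a model with all 4 groups, passed an adjusted p of 0.05 for 2 genes in mRNA and 8 in footprints. All of these were lower, where 5.06% of all genes tested were called lower in mRNA and 10% in footprints. In mRNA the log2 difference was -1.05 for CPA1. In footprints it was -1.60 for ARG4, the argininosuccinate lyase of arginine synthesis. HOM2 had -0.78 and HOM3 had -0.84, both early enzymes of the threonine branch. ILV6 had -0.58 and LEU4 had -1.05, both of branched chain synthesis, and LYS1 had -1.27 and OAC1 -0.76.

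ARG4 footprints were 729, 721 and 408 RPKM in DED1 cells at 30C and 651 and 539.7 RPKM at 37C, where the temperatures overlapped. In DBP1 cells they were 912, 722 and 685 RPKM at 30C and 361 and 174 RPKM at 37C, with no overlap. LYS1 footprints were 291, 303 and 182 RPKM in DED1 cells at 30C and 238 and 214 RPKM at 37C, again with overlap. In DBP1 cells they were 421, 318 and 323 RPKM at 30C and 159 and 106 RPKM at 37C. ILV6 footprints were 1019, 1011 and 879 RPKM in DED1 cells at 30C and 748 and 735 RPKM at 37C, and 1204, 1002 and 1018 RPKM in DBP1 cells at 30C and 596 and 505 RPKM at 37C, so both strains were lower at 37C and DBP1 cells more so.

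The adjusted p was 0.047 for ARG4, 0.0438 for HOM2, 0.0397 for HOM3, ILV6 and LYS1, and 0.0339 for LEU4. Under median-of-ratios scaling ARG4, HOM2, HOM3, ILV6 and LYS1 lost the call in limma. Their adjusted p was then 0.059, 0.0697, 0.0586, 0.0785 and 0.0518, while LEU4 and OAC1 kept the call. With 1 replicate left out, ARG4 and HOM2 lost the call in 8 of 10 fits, HOM3 and ILV6 in 7, LYS1 in 6, LEU4 in 5 and OAC1 in 3.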

How the results depend on the processing

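Counts below are genes of the 52 called, higher and lower together. With the filter at 20 RPKM, 5 were called in footprints for the swap at 37C. Over all genes that filter called 2 higher and 46 lower of 3597. Median-of-ratios scaling gave 20 in mRNA and 26 in footprints for 37C in DED1 cells, 1 in mRNA and 3 in footprints for the strain difference, and 4 at 30C and 1 at 37C in footprints for the swap. It left 39 lower and 0 higher in mRNA for 37C in DBP1 cells, against 36 and 3. Over all genes it called 1049 lower and 713 higher there, against 715 and 1635. For the strain difference it called 13 higher and 150 lower of all genes in mRNA, and 187 and 298 in footprints. For the swap in footprints, 370 of all genes were higher and 248 lower at 30C, and 1 and 10 at 37C. A replicate block gave 22 in mRNA and 23 in footprints for 37C in DED1 cells, 12 and 17 for the strain difference, and 4 at 30C and 12 at 37C in footprints for the swap, and for translation efficiency 4 and 2 for 37C in DED1 and DBP1 cells. Over all genes, the block called 75 higher and 448 lower in mRNA for the strain difference, and 179 and 638 in footprints. With neither block nor scaling these were 9 and 276, and 95 and 501. For 37C in DED1 cells the block called 2355 of all genes higher and 569 lower in mRNA, and 1851 and 649 in footprints. For the swap in footprints the block called 592 higher and 260 lower at 30C, and 6 and 93 at 37C. Same-numbered libraries of the strains at 30C deviated with correlations of -0.06 to 0.29 in mRNA and -0.16 to 0.36 in footprints, and those at 37C with 0.36 in mRNA and 0.48 in footprints, from 2 libraries a strain. Since not every pair was above 0.1, and the labels give the numbers no meaning, they were not taken as pairing the groups. With each replicate left out, the mRNA counts ranged from 1 to 3 for the swap at 30C, 0 to 2 for the swap at 37C, 5 to 16 for 37C in DED1 cells, 22 to 39 for 37C in DBP1 cells and 1 to 7 for the strain difference. The footprint counts ranged from 0 to 4, 0 to 9, 8 to 19, 26 to 37 and 0 to 17. The counts over all genes also moved with the library left out. The causes were not tested.

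Of 118 single calls none changed sign under these alternatives. The other pseudocounts and the filter at 20 RPKM kept all 118, no filter lost 6, the scaling 14 and the block 2, and leaving out a replicate 6 to 36, the most without replicate 2 of DBP1 cells at 37C. With 2 libraries a strain at 37C, a p that misses the threshold does not show equal levels.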
